A study of Mus musculus with 8 samples.

Results

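The genes described here were those whose signal separated DMBA-treated from untreated mouse skin on every array, whatever the *CD109* genotype. A gene was counted as above when all 4 arrays of DMBA-treated skin exceeded all 4 arrays of untreated skin, and as below in the reverse case. The members were thus chosen by their log2 signals on the 8 arrays. By this rule, 2275 of 36917 probes (6.16%) and 1147 of 16767 named genes (6.84%) separated. Because these values chose the genes, the differences between DMBA-treated and untreated skin are given as a description and without a test.

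The arrays measured total RNA of the whole skin of female *CD109+/+* and *CD109-/-* mice on the FVB/N background. The skin had been treated with DMBA, or with acetone alone in the groups whose titles read untreated, 24 h before the RNA was extracted. The 4 groups were DMBA-treated *CD109+/+*, DMBA-treated *CD109-/-*, untreated *CD109+/+* and untreated *CD109-/-* skin, with 2 arrays each. The *CD109-/-* mice are CD109-deficient per the labels, which do not say that each array came from a separate animal. Any p-value therefore measures only the spread between these samples. In RNA from whole skin, fewer cells of a type and less RNA per cell cannot be told apart.

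DMBA is a polycyclic aromatic hydrocarbon that serves as the initiator in models of skin carcinogenesis. Enzymes induced through the aryl hydrocarbon (Ah) receptor convert it into reactive forms that bind DNA, and the resulting adducts activate repair and p53, a transcription factor that induces genes of cell cycle arrest and cell death. Injured or irritated epidermis switches to an activated state with the stress keratins, small proline-rich proteins and cysteine protease inhibitors, and attracts neutrophils.

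Signals are given as log2 signal, the log2 of the background-subtracted intensity minus the log2 of the 75th percentile of its array, so that 0 is the level of that percentile and an increase of 1 is a doubling. The 75th percentile lay between 382 and 626 intensity units, and 63.6% to 67.0% of the spots of an array were well above background. Epidermal keratins marked the tissue as skin: *Krt5*, a keratin of basal epidermis, had a log2 signal between 7.54 and 8.17 on all arrays. *Cd109* itself was 0.84 and 1.42 on the DMBA-treated *CD109+/+* arrays, and -8.06 and -7.70 on the DMBA-treated *CD109-/-* arrays. The untreated arrays labelled *CD109+/+* gave 2.06 and -6.49, and those labelled *CD109-/-* gave 1.66 and -8.11, so the library labelled untreated *CD109+/+* replicate 2 and the library labelled untreated *CD109-/-* replicate 1 went against their genotype labels. Both stayed in the untreated group, as labelled, and their treatment label was not tested. The arrays also differed in the signal of the hair shaft keratins. Its mean on the log2 scale was -4.24 and -4.33 on the untreated arrays with *Cd109* signal. It was 3.81 and 2.37 on the untreated arrays without *Cd109* signal. It was -4.61 and -4.58 on the DMBA-treated *CD109+/+* arrays and 0.45 and 4.97 on the DMBA-treated *CD109-/-* arrays, so it also differed between the DMBA-treated genotypes whose values are set side by side here, and its part in those differences was not tested.

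All 8 arrays lay on 1 slide, with DMBA-treated skin in slide row 1 and untreated skin in slide row 2, so the effects of the treatment and of the row cannot be told apart. The mean signal of the negative controls was 1.77 to 2.29 in the DMBA row and 2.61 to 2.79 in the untreated row, without overlap. Of 29 labelled spike-in and other positive control probes well above background on all arrays, 0 separated by treatment, but their median log2 difference was 0.30. The median log2 signal of 8 spike-in probes was 3.89 and 4.17 on the DMBA-treated *CD109-/-* arrays and 3.35 to 3.50 on the other arrays, and its part in the results was not tested. Among 13188 probes that were well above background on no array, 219 (1.66%) lay above and 11 (0.0834%) below, which is the separation seen where no signal was measured.

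Among the probes tested, 1396 (3.78%) lay above and 879 (2.38%) below. Among named genes, 632 (3.77%) lay above and 515 (3.07%) below. The differences were larger on the upper side: the median log2 difference was 0.49 among genes above and -0.38 among genes below, and 153 genes above but 43 genes below differed by more than 1. With limma and the *Cd109* signal state as a covariate, 22 probes (0.0596%) passed as higher and 7 (0.019%) as lower, or 12 genes (0.0716%) and 4 genes (0.0239%). That fit used the contrast of the rule, and its counts are given as a background only. The groups stood apart by more than 1 log2 unit in 17 genes above and 2 genes below. The signal of the other group was not well above background on any of its arrays for 53 of the genes above and 6 of the genes below. Several probes were tested for 314 of the 1147 genes, and in 57 of them all probes separated in the same direction.

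**Figure D1:**
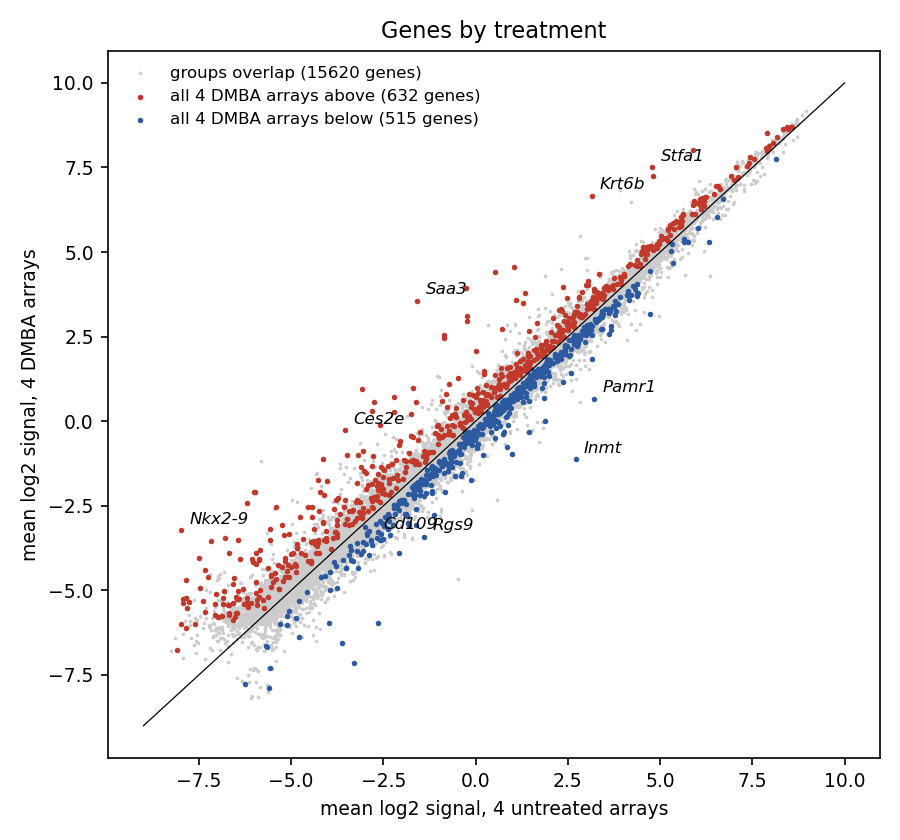
Mean log2 signal of each of 16767 genes on the 4 untreated arrays (horizontal axis) and on the 4 DMBA arrays (vertical axis), with the line of equal signal. Genes above (632, red) and below (515, blue) were coloured by the rule that chose them, and *Saa3* lies farthest above the line among the genes above.

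Membership depended on how the arrays were scaled. Of the 632 genes above, 404 still separated after quantile normalization, 451 after a normexp background correction and 216 after centring each array on its median, and 168 did so under all of these. For the 515 genes below, the counts were 435, 356 and 247, and 170 under all of them. The scaling also moved the balance between the directions: 61.4% of the separating probes lay above as reported, 74.0% with normexp (1769 above and 621 below), 55.8% with median centring (1075 and 852) and 52.3% with quantile normalization (1130 and 1030). The genes that kept their side under all scalings had a median log2 difference of 1.17 above and -0.45 below. Of the 12 genes with the largest differences among those well above background on all arrays, 11 above and 10 below kept their side. At the edge of the rule, *Ciao3* and *Septin3* above and *Foxj3* and *Tspyl1* below separated by less than 0.01 log2 units, and *Rps26*, *Trappc13*, *Trnt1* and *Ikbkb* overlapped by less than 0.01.

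**Figure D2:**
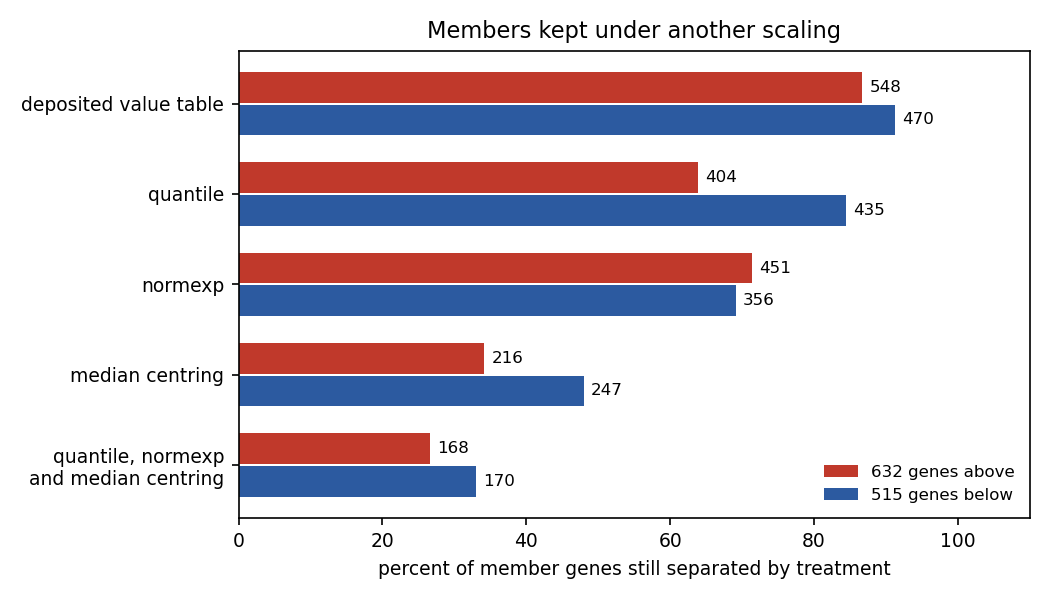
Percent of the 632 genes above (red) and the 515 genes below (blue) that still separated by treatment under another scaling or in the deposited value table. The number of genes stands beside each bar. In the values of that table, where 548 and 470 genes still separated, spots marked as outlier were kept. The bars are shortest where quantile normalization, normexp and median centring were all required, with 168 genes above and 170 below.

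With only the tested genes placed in the RefSeq gene order of GRCm38.p6, the genes above formed 5 runs of at least 3 neighbours. The genes below formed 0 such runs. Of the 632 genes above, 80 had another gene above as the next tested gene on either side, against 36 of 515 genes below. Genes above were 3.77% and genes below 3.07% of all tested genes. How many neighbours these shares alone would give was not tested. The runs were the stefins (9 genes), gasdermin C (4 genes), and the serum amyloid A, Tmprss11 and kallikrein genes (3 genes each). Members of such families have closely related sequences, and a probe may detect RNA of several of them, so the genes of a run are not independent observations.

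The serum amyloid A genes encode acute phase proteins that inflamed tissues and the liver secrete. *Saa3* showed the largest difference of all members: its log2 signal was 6.06 and 4.53 on the DMBA-treated *CD109+/+* arrays, 0.62 and 3.05 on the DMBA-treated *CD109-/-* arrays, -0.96 and -1.33 on the untreated arrays labelled *CD109+/+*, and -3.24 and -0.77 on those labelled *CD109-/-*. The means over 4 arrays were 3.56 ± 2.32 with DMBA and -1.58 ± 1.13 without (SD, n = 4), 5.14 apart on the log2 scale. Both DMBA-treated *CD109+/+* arrays were higher than both DMBA-treated *CD109-/-* arrays, and all 4 were higher than untreated skin. *Saa1* gave 4.70 and 3.09 in DMBA-treated *CD109+/+* skin, 0.32 and 2.05 in DMBA-treated *CD109-/-* skin, against -1.45 to -0.31 in untreated skin, a log2 difference of 3.38. *Saa2* differed by 2.48, but the lowest DMBA array and the highest untreated array were only 0.087 apart, and it did not separate under every scaling.

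The 250 bases before the gene starts of these genes are shown because the genes of the run moved together. They are from RefSeq on GRCm38.p6, each written on the strand of its gene, and capitals mark matches to the C/EBP motif TTGCNNAA, searched on both strands. C/EBP factors are transcription factors of the acute phase response. The match is a description of the letters.
*Saa1* (chr7:46742981-46743230, minus strand): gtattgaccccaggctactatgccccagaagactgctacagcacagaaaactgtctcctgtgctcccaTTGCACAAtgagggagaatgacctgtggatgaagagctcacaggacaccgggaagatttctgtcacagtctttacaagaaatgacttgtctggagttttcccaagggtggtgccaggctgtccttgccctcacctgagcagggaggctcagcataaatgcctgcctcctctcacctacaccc
*Saa2* (chr7:46751583-46751832, plus strand): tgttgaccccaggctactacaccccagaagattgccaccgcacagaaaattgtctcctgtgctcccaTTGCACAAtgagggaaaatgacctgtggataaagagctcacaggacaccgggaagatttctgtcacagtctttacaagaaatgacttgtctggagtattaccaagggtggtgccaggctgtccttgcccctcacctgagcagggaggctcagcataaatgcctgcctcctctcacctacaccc
*Saa3* (chr7:46715677-46715926, minus strand): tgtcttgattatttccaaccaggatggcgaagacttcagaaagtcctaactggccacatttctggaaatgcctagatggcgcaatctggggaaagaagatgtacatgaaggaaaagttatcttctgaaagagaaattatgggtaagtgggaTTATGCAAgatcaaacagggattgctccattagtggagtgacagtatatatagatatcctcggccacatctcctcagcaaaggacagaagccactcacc
The match began 182 bases before the start of *Saa1*, 183 before *Saa2* and 99 before *Saa3*. The *Saa1* and *Saa2* sequences were 94.8% identical, and that of *Saa3* was 52.2% and 52.4% identical to them in a global alignment.

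The stefins, also called cystatins A, inhibit cysteine proteases and accumulate in activated keratinocytes and in neutrophils. All 9 genes of the run (*Stfa2l1*, *Cstdc4*, *Csta3*, *Csta2*, *Stfa1*, *Cstdc6*, *Cstdc5*, *Stfa2* and *Stfa3*) were well above background on every array, with log2 differences between 2.11 for *Cstdc5* and 4.05 for *Cstdc4*. *Stfa2* had a log2 signal of 6.34 and 6.14 in DMBA-treated *CD109+/+* skin, 2.74 and 2.38 in DMBA-treated *CD109-/-* skin, 0.67 and 1.60 on the untreated arrays labelled *CD109+/+*, and -1.80 and 1.59 on those labelled *CD109-/-*. *Stfa1* gave 8.07 and 7.99, 7.37 and 6.59, 5.07 and 5.88, and 2.55 and 5.65 in the same order. Both DMBA-treated *CD109-/-* arrays lay between DMBA-treated *CD109+/+* skin and untreated skin for each of the 9 genes. For *Stfa2* they lay nearer to untreated skin than to DMBA-treated *CD109+/+* skin. Of the 9 genes, *Csta3* did not separate under every scaling.

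Upstream sequences of stefin genes are shown to let the relatedness of the family be seen. For *Stfa1* and *Cstdc5*, capitals mark the C/EBP match, and for *Stfa2* and *Stfa2l1* they mark the bases that differ between these genes in a global alignment.
*Stfa1* (chr16:36276898-36277147, plus strand): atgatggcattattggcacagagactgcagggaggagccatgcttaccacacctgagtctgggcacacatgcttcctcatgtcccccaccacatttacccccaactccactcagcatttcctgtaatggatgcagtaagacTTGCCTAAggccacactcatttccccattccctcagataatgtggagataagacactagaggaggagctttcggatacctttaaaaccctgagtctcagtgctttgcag
*Cstdc5* (chr16:36367571-36367820, minus strand): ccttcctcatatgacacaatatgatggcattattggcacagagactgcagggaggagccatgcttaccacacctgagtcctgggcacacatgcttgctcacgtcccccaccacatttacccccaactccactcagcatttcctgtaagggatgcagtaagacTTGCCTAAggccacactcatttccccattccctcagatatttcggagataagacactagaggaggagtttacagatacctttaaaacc
*Stfa2* (chr16:36408364-36408613, minus strand): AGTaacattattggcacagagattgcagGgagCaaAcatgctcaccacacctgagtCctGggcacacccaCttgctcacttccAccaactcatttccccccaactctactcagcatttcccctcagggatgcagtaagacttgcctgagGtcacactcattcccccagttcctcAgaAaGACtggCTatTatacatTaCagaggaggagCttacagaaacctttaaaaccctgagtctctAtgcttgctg
*Stfa2l1* (chr16:36156561-36156810, plus strand): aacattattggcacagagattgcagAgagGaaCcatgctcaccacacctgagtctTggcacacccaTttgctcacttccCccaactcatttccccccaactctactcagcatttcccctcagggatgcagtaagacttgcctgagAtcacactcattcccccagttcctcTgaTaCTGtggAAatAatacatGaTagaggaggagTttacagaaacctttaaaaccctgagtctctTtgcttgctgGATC
*Stfa1* and *Cstdc5* carried the same match, 109 and 88 bases before their starts, and their sequences were 81.2% identical. *Stfa2* and *Stfa2l1* were 89.4% identical, and neither had a match to the C/EBP motif in these bases.

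**Figure D3:**
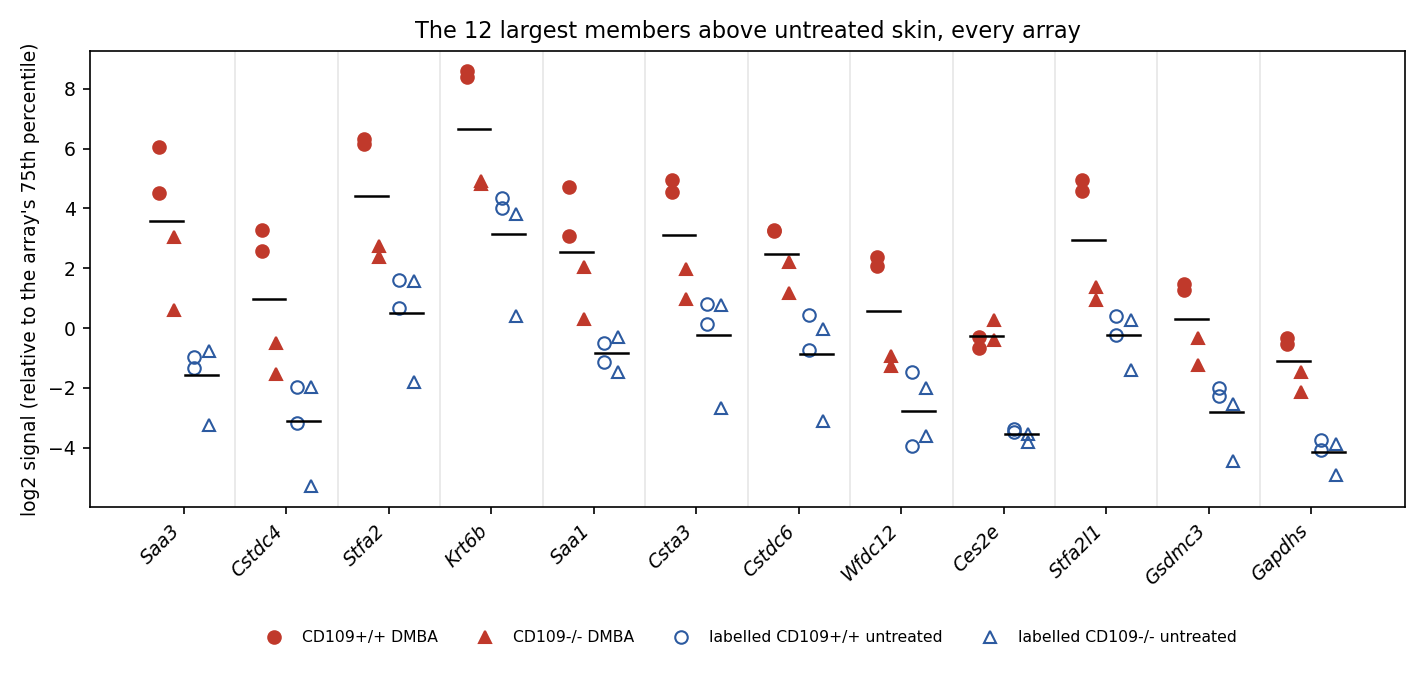
Log2 signal of the 12 genes with the largest differences among genes above that were well above background on all 8 arrays. Each symbol is 1 array (filled red, DMBA; open blue, untreated; circles, *CD109+/+* and triangles, *CD109-/-* as labelled), and black lines are the means of 4 arrays. For *Ces2e* the DMBA arrays of both genotypes lie together, whereas for *Krt6b* the *CD109-/-* arrays lie just above untreated skin.

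The gasdermin C genes encode pore-forming proteins of epithelia, but the *Gsdmcl2* probe is assigned to a RefSeq transcript listed as non-coding. *Gsdmc*, *Gsdmc3*, *Gsdmc4* and *Gsdmcl2* differed by 2.67, 3.10, 2.92 and 2.11 on the log2 scale, and all of them kept their side under every scaling. *Gsdmcl2* was the most even of the run, with -2.11 and -2.10 in DMBA-treated *CD109+/+* skin, -2.17 and -2.04 in DMBA-treated *CD109-/-* skin, against -5.09 to -3.55 in untreated skin. *Gsdmc3* instead gave 1.28 and 1.47 in DMBA-treated *CD109+/+* skin, -0.33 and -1.23 in DMBA-treated *CD109-/-* skin, against -4.45 to -1.99 in untreated skin.

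The Tmprss11 genes encode membrane-bound serine proteases of squamous epithelia, and the kallikreins *Klk6*, *Klk7* and *Klk8* encode secreted serine proteases, of which *Klk7* cleaves the junctions of the cornified layer. *Tmprss11a* had a log2 signal of -2.88 and -3.43 in DMBA-treated *CD109+/+* skin and of -3.89 and -3.94 in DMBA-treated *CD109-/-* skin, and was not well above background on any untreated array (-7.72 to -6.39), which made it at least 5.30-fold higher after DMBA. This bound sets the DMBA mean against the lowest signal that was well above background on the untreated arrays. With normexp, which adds an offset of 50 to every intensity, the log2 difference of *Tmprss11a* was 0.95, which is smaller than this bound. *Tmprss11g* differed by 2.17. *Tmprss11d* was well above background on 3 DMBA arrays and on 0 untreated arrays, and it did not separate under every scaling. The kallikreins differed by 1.60 (*Klk6*), 0.56 (*Klk7*) and 1.01 (*Klk8*), and none of these 3 kept its side under every scaling.

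Of 19 genes of activated epidermis, 4 lay above (21.1%, against 3.77% of all genes) and 0 below. All 19 had a higher mean after DMBA, with a median log2 difference of 1.98, against -0.00091 over all genes tested. *Krt6b*, a keratin of activated epidermis, gave 8.58 and 8.38 in DMBA-treated *CD109+/+* skin, 4.80 and 4.91 in DMBA-treated *CD109-/-* skin, 4.33 and 4.02 on the untreated arrays labelled *CD109+/+*, and 0.41 and 3.81 on those labelled *CD109-/-*. Its second probe also separated, with a difference of 2.96 against 3.52. Without the untreated array labelled *CD109-/-* replicate 1, the lowest of all, the difference was 2.22. *Serpinb3a*, a serine protease inhibitor, differed by 1.98. *Sprr2k*, a small proline-rich protein of the cornified envelope, was well above background on only 2 DMBA arrays, both *CD109+/+*, with -2.21 and -3.14. The other 15 genes of the list overlapped between the treatments, among them *Krt6a* and *Krt16*. *Krt16* was 8.18 and 8.04 in DMBA-treated *CD109+/+* skin but 5.01 and 4.66 in DMBA-treated *CD109-/-* skin, the latter within or close to the untreated range of 3.27 to 4.96.

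In the cornified epidermis list, *Rptn*, *Klk7* and *Dsc1* lay above, 3 of 23 genes against 3.77% of all genes, and 0 below. The list went both ways, with a higher mean after DMBA in 12 of 23 genes and differences from -1.33 to 2.36. *Rptn*, which encodes the cornified envelope protein repetin, was 0.72 and 0.75 in DMBA-treated *CD109+/+* skin, 1.76 and -0.06 in DMBA-treated *CD109-/-* skin, against -1.19 to -0.38 in untreated skin. It kept its side under every scaling, which *Klk7* and *Dsc1* did not. *Wfdc12*, a secreted whey acidic protein of epithelia, differed by 3.32, with 2.39 and 2.08 in DMBA-treated *CD109+/+* skin, -1.26 and -0.95 in DMBA-treated *CD109-/-* skin and -3.95 to -1.46 in untreated skin.

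Of the inflammatory genes, *Cxcr2*, the neutrophil receptor for CXC chemokines, and *Mmp8*, a neutrophil collagenase, lay above. *Cxcr2* was 0.66 and 0.29 in DMBA-treated *CD109+/+* skin, -2.33 and -2.65 in DMBA-treated *CD109-/-* skin, against -4.17 to -2.98 in untreated skin. *Mmp8* was -1.07 and -1.44, then -3.66 and -4.00, against -6.01 to -5.06. They were 2 of 15 neutrophil genes (13.3%, against 3.77% of all genes). The mean log2 signal of that list was 1.39 and 0.87 in DMBA-treated *CD109+/+* skin, 0.19 and -0.73 in DMBA-treated *CD109-/-* skin, against -0.93 to -0.41 in untreated skin, so the list as a whole overlapped. Of its granule genes, *Mpo* and *Elane* differed by -0.60 and -0.08, with overlap, and *Ltf* was not well above background on any untreated array. The part of neutrophil content in the values of the stefin, *Saa* and *Mmp8* probes was not tested. *Il24*, a cytokine of the IL-20 family, was the 1 of 26 cytokine genes (3.85%) that separated, near the 3.77% of all genes, with a difference of 1.11, and 5 of the 26 lay above with normexp. *Timp1*, an inhibitor of matrix metalloproteinases, differed by 2.18, with 5.09 and 4.82 in DMBA-treated *CD109+/+* skin but 1.96 and 2.05 in DMBA-treated *CD109-/-* skin, against 0.62 to 1.79 in untreated skin. It did not separate under every scaling. It was the 1 of 20 genes above in the list of TGF-beta signalling and targets (5%, near the 3.77% of all genes). In that list 4 of 20 genes had a higher mean after DMBA and the median log2 difference was -0.18.

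Among genes well above background on all arrays, the widest gaps between the treatments were those of *Ces2e*, *Gapdhs*, *Gpr179*, *Saa3*, *Gsdmcl2* and *Fetub*. *Ces2e*, a carboxylesterase that hydrolyses esters of drugs and lipids, had a log2 signal of -0.65 and -0.28 in DMBA-treated *CD109+/+* skin and of 0.28 and -0.41 in DMBA-treated *CD109-/-* skin. It was -3.46 and -3.36 on the untreated arrays labelled *CD109+/+* and -3.81 and -3.54 on those labelled *CD109-/-*. The means were -0.27 ± 0.40 with DMBA and -3.54 ± 0.19 without (SD, n = 4), and the closest arrays of the treatments were 2.71 apart. Its upstream sequence is shown because this gap was the widest of any gene well above background on all arrays, with the C/EBP match in capitals, 93 bases before the start.
*Ces2e* (chr8:104926010-104926259, plus strand): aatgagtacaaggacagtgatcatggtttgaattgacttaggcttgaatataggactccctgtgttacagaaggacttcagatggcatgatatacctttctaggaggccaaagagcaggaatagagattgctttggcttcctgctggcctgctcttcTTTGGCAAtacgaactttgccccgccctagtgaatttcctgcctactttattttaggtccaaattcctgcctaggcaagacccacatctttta

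*Gpr179*, an orphan G protein-coupled receptor, was between -2.01 and -1.48 on the DMBA arrays and between -5.13 and -3.42 on the untreated arrays. *Fetub*, the protease inhibitor fetuin-B, was between -1.16 and -0.62 after DMBA and between -3.57 and -2.46 in untreated skin. *Gapdhs*, a glyceraldehyde-3-phosphate dehydrogenase known from sperm, differed by 3.04, and its second probe separated too. All of these kept their side under every scaling.

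Other genes were measured well above background only after DMBA. *Nkx2-9*, a homeobox transcription factor, was -3.03 and -2.30 in DMBA-treated *CD109+/+* skin, -3.32 and -4.24 in DMBA-treated *CD109-/-* skin, against -8.20 to -7.45 in untreated skin, at least 6.58-fold higher after DMBA. *Robo3*, a receptor of axon guidance, was at least 5.57-fold higher, with -4.11 to -3.09 on the DMBA arrays and -6.95 to -6.65 on the untreated arrays. *Dbh*, which converts dopamine to noradrenaline, was at least 3.99-fold higher, but its DMBA arrays ranged from -5.14 to -2.65 and it did not separate under every scaling. With normexp the log2 differences of *Nkx2-9*, *Robo3* and *Dbh* were 1.204, 1.01 and 0.82, all smaller than these bounds, which therefore hold for the signal as reported and not under that correction. The olfactory and vomeronasal receptors, known from the sensory neurons of the nose, had 10 of 209 genes above (4.78%, near the 3.77% of all genes) and 1 below. After quantile normalization 6 lay above and 5 below, and 2 were above under every scaling.

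Of 34 p53 target genes, 9 lay above (26.5%, against 3.77% of all genes) and 1 below. The mean log2 signal of the list was between 0.97 and 1.09 on the DMBA arrays and between 0.69 and 0.81 on the untreated arrays, without overlap. The genes above were *Gtse1*, *Tnfrsf10b*, *Ckap2*, *Polk*, *Pmaip1*, *Bax*, *Zmat3*, *Aen* and *Mdm2*, of which *Gtse1*, *Tnfrsf10b* and *Pmaip1* kept their side under every scaling. *Pmaip1*, which encodes the pro-apoptotic protein Noxa, was 0.96 and 1.30 in DMBA-treated *CD109+/+* skin, 1.03 and 0.94 in DMBA-treated *CD109-/-* skin, 0.35 and 0.20 on the untreated arrays labelled *CD109+/+*, and 0.39 and 0.19 on those labelled *CD109-/-*. The difference was 0.77, and the arrays of the genotypes lay together within each treatment. *Tnfrsf10b*, a death receptor for TRAIL, was between 0.22 and 0.62 after DMBA and between -0.71 and -0.29 in untreated skin. *Bax*, a pore-forming protein of mitochondrial cell death, and *Mdm2*, the ubiquitin ligase that degrades p53, differed by 0.53 and 0.30. Across quantile normalization, median centring and normexp, 7, 5 and 9 genes of the list lay above.

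*Gtse1* and *Ckap2* encode proteins of the G2 phase and the mitotic spindle, and their values followed the cell cycle genes in untreated skin. *Gtse1* was -0.60, -0.38, -0.32 and -0.48 on the DMBA arrays, but -2.45 and -1.03 on the untreated arrays labelled *CD109+/+* and -2.66 and -0.88 on those labelled *CD109-/-*. The proliferation list behaved likewise: its mean log2 signal was 1.57 to 1.97 on the DMBA arrays, 0.70 and 0.49 on the untreated arrays with *Cd109* signal and 1.88 and 1.97 on those without it. All 29 genes of that list had a higher mean after DMBA (median difference 0.46). Only *Birc5* and *Ccne1* separated (6.90%, against 3.77% of all genes), and neither kept its side under every scaling. The part of the hair shaft keratin signal, which moved with these values in untreated skin, was not tested for these genes.

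**Figure D4:**
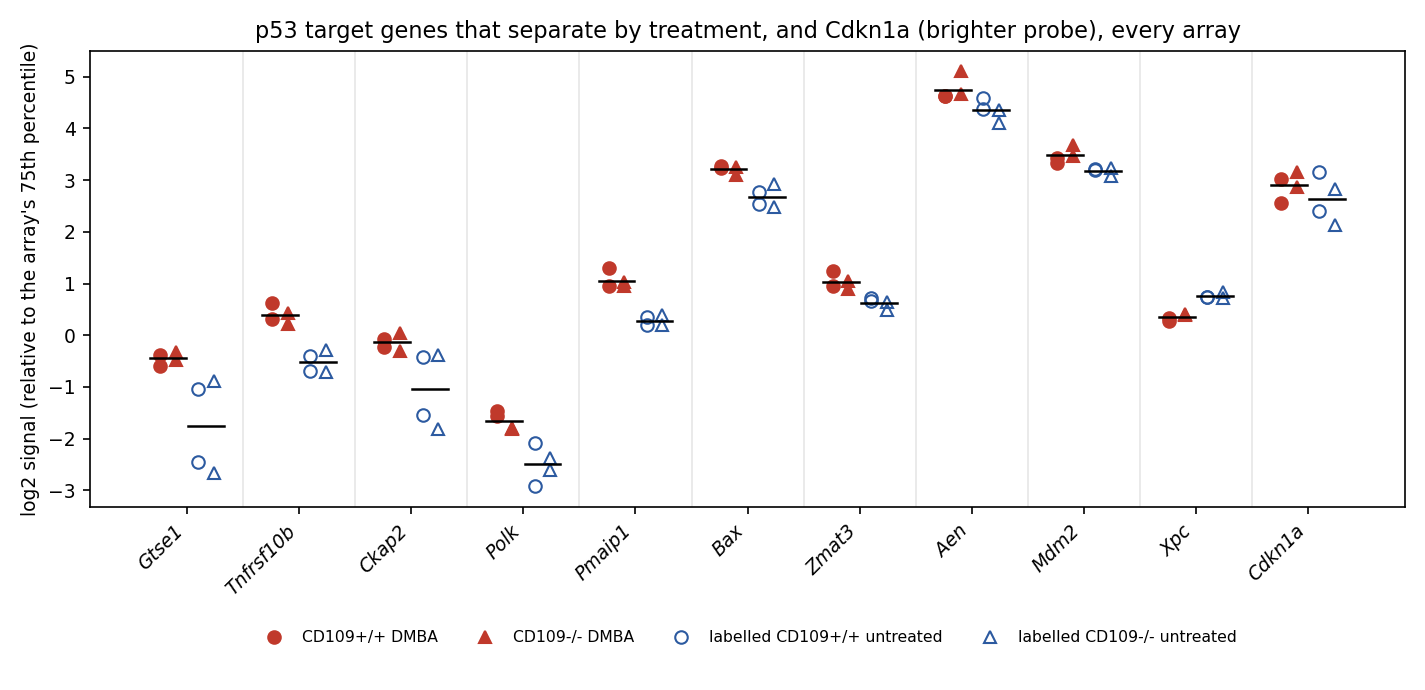
Log2 signal of the 10 p53 target genes that separated by treatment and of the brighter *Cdkn1a* probe, with symbols as in the plot of the largest genes above. *Pmaip1* and *Tnfrsf10b* show tight groups on every array, *Gtse1* and *Ckap2* show untreated arrays at different levels, *Xpc* is lower after DMBA and *Cdkn1a* overlaps.

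*Cdkn1a*, which encodes the cell cycle inhibitor p21, gave different results with its probes. The brighter probe was 2.56 and 3.02 in DMBA-treated *CD109+/+* skin, 2.87 and 3.15 in DMBA-treated *CD109-/-* skin, against 2.13 to 3.15 in untreated skin, and so overlapped. The dimmer probe was between -3.66 and -2.02 on the DMBA arrays and between -5.19 and -3.91 on the untreated arrays, a difference of 1.93. Which transcripts the probes detect was not analysed here.

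*Xpc*, which recognises bulky lesions in nucleotide excision repair, was the p53 target below. It was 0.33, 0.27, 0.38 and 0.41 on the DMBA arrays and 0.74, 0.75, 0.84 and 0.71 on the untreated arrays, a small difference of -0.41 with little spread. Of 29 genes of adduct repair and damage signalling, 3 lay above (10.3%) and *Xpc* alone below (3.45%). Of all genes, 3.77% lay above and 3.07% below. *Polk*, a polymerase that copies past bulky adducts, differed by 0.85, with a second probe at 0.78. *Chek2*, a checkpoint kinase, differed by 0.68. None of the 3 genes above kept its side under every scaling.

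The Ah receptor pathway and the enzymes that activate DMBA had 0 of 13 genes above and 0 below at this time point. Across all genes, 3.77% lay above and 3.07% below, so a list of this size can hold 0 members at these shares. *Cyp1a1*, the classical target of the receptor, was 1.99 and 2.52 in DMBA-treated *CD109+/+* skin, 2.50 and 1.56 in DMBA-treated *CD109-/-* skin, and reached 2.23 on an untreated array. *Cyp1b1* was 1.37 and 1.79, then 0.78 and 0.72, against 1.34 to 1.55 in untreated skin. Of 35 genes of the list of Nrf2, the regulator of antioxidant genes, and its targets, *Pgd* of the pentose phosphate pathway was the 1 gene above (2.86%), and not under every scaling. *Nfe2l2*, which encodes Nrf2, differed by 0.12 with overlap.

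Housekeeping groups moved by little and depended on the scaling. The shares below stand beside 3.77% of all genes that lay above. Of 79 ribosomal protein genes, 8 lay above (10.1%) with differences of at most 0.29, but after quantile normalization 0 lay above and 4 below. Of 38 proteasome genes, 4 lay above (10.5%), and 0 did so after quantile normalization. In the stress response list, *Hspa8* and *Hspa5*, chaperones of the cytosol and the endoplasmic reticulum, differed by 0.23 and 0.32, 2 of 14 genes (14.3%), and neither kept its side under every scaling.

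The genes below had smaller differences. *Inmt*, which methylates indole amines, had the largest among those well above background on all arrays: its log2 signal was 0.92 and -0.07 in DMBA-treated *CD109+/+* skin, -2.31 and -3.04 in DMBA-treated *CD109-/-* skin, 2.26 and 1.58 on the untreated arrays labelled *CD109+/+*, and 3.77 and 3.22 on those labelled *CD109-/-*. The means were -1.12 ± 1.86 with DMBA and 2.71 ± 0.97 without (SD, n = 4), a difference of -3.83. *Pamr1*, a secreted protein with a protease-like domain, differed by -2.55, with 2.08 and 1.76 in DMBA-treated *CD109+/+* skin and -0.66 and -0.52 in DMBA-treated *CD109-/-* skin, against 2.21 to 4.05 in untreated skin. For both genes the DMBA-treated *CD109-/-* arrays were the lowest. *Pamr1* did not separate under every scaling.

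*Plin5*, *Slc25a34* and *Ces1f* were also among the 12 largest below. *Plin5*, a coat protein of lipid droplets, was 0.81 and 0.75 in DMBA-treated *CD109+/+* skin, -0.20 and -1.29 in DMBA-treated *CD109-/-* skin, against 1.17 to 2.46 in untreated skin. *Slc25a34*, a mitochondrial carrier, and *Ces1f*, a carboxylesterase, differed by -1.97 and -1.44, so *Ces1f* and *Ces2e*, members of the same enzyme superfamily, lay on opposite sides. *Nr1h4*, the bile acid receptor FXR, differed by -1.17, but by -0.12 with normexp, and it did not separate under every scaling. *Scd3*, a fatty acid desaturase of sebaceous glands, gave -3.63 with 1 probe, but its other probes, the brightest among them, overlapped, and it was not counted. The sebaceous gland, adipocyte and skeletal muscle lists had 0 genes above and 0 below of 14, 14 and 15, against 3.77% and 3.07% of all genes. All 15 muscle genes had a lower mean after DMBA, and the mean of that list was 3.46 to 5.37 on the DMBA arrays and 4.53 to 6.06 on the untreated arrays. The part of tissue content in the values of *Plin5* and *Slc25a34* was not tested.

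**Figure D5:**
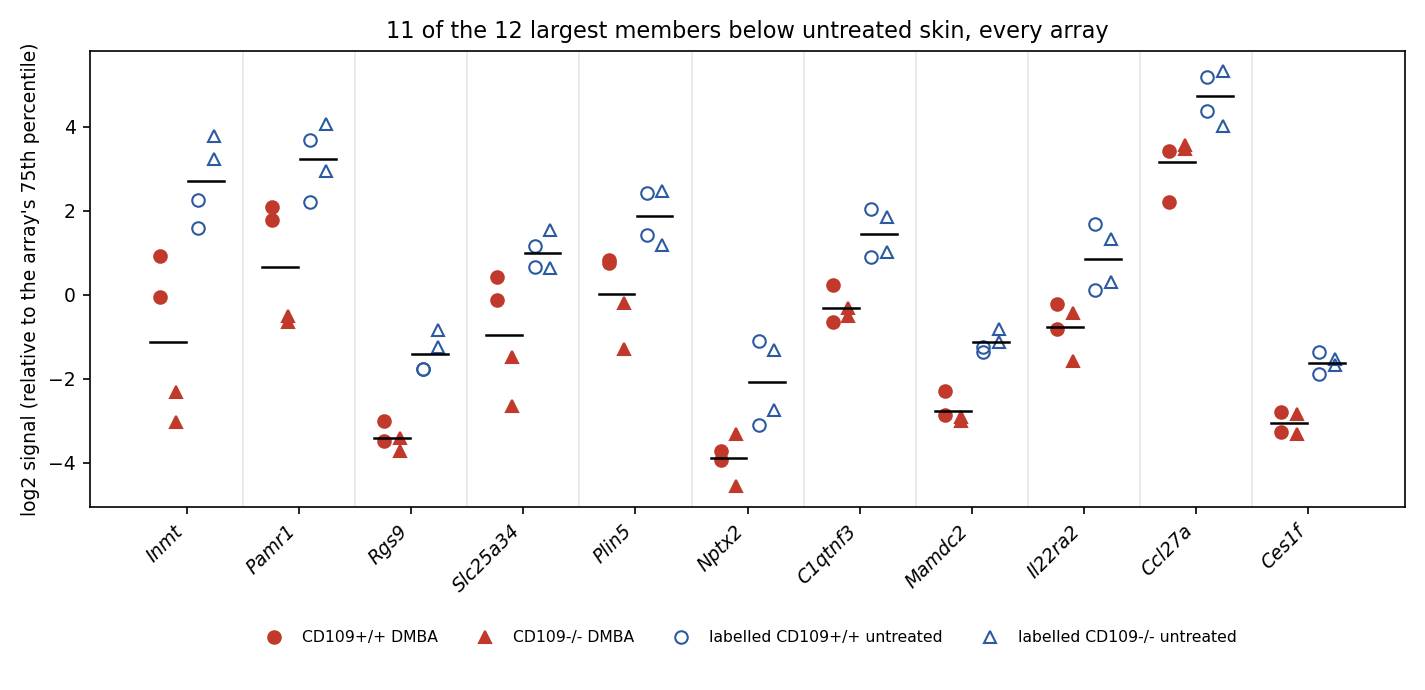
Log2 signal of 11 of the 12 genes with the largest differences among genes below that were well above background on all 8 arrays, with symbols as in the plot of the largest genes above. *Ces1f* and *Rgs9* have DMBA arrays close together in both genotypes, whereas *Inmt* and *Pamr1* are lowest in DMBA-treated *CD109-/-* skin.

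Epidermal and signalling genes below included *Ccl27a*, a chemokine that keratinocytes use to attract T cells to skin. It was 2.20 and 3.42 in DMBA-treated *CD109+/+* skin, 3.55 and 3.47 in DMBA-treated *CD109-/-* skin, against 4.01 to 5.31 in untreated skin. It was the 1 of 24 chemokine genes (4.17%, against 3.07% of all genes) below. *Krt15*, a keratin of basal cells and the follicle bulge, differed by -1.05 and was the 1 of 12 basal epidermis genes below. *Il22ra2*, a soluble receptor that binds IL-22, differed by -1.61, and *Nr4a1*, an immediate early nuclear receptor, by -0.96, the 1 of 19 genes of its list below. *Rgs9*, a regulator of G protein signalling, had the widest gap among genes below that were well above background on all arrays, 1.24, with -3.74 to -3.01 on the DMBA arrays and -1.78 to -0.84 on the untreated arrays. *Rfx2*, a transcription factor of ciliated cells, showed little spread: it was -4.08, -4.13, -4.12 and -4.12 on the DMBA arrays and -3.40, -3.32, -3.36 and -3.39 on the untreated arrays, a difference of -0.74. With normexp the differences of *Rgs9* and *Rfx2* were smaller, at -1.13 and -0.25. *Mamdc2*, an extracellular matrix protein, *C1qtnf3*, a secreted relative of adiponectin, and *Nptx2*, a pentraxin, differed by -1.64, -1.76 and -1.81. *Bmp6*, a signal of the resting follicle, differed by -0.95 and lay 0.01 from overlap, the 1 of 11 genes below in the list of the bulge and resting follicle. *Nptx2* and *Bmp6* did not separate under every scaling. With 3.07% of all genes below, a short list can hold 1 member at this share.

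Several groups of cells had 0 genes above and 0 below: interferon response (22 genes), macrophages (18), mast cells (10), T cells (15), Langerhans and dendritic cells (12), hair shaft keratins (12), inner root sheath (11), hair matrix (15), melanocytes (12), fibroblasts and matrix (14) and endothelium (15). The B cell (3 genes), erythroid (7), glucocorticoid and metal response (10) and keratin-associated protein (47) lists had none either. *Adamts1*, a matrix protease, was 1 of 15 above in its list, and *Cry1*, a repressor of the circadian clock, 1 of 18. Of 87 respiratory chain genes, 3 lay above (3.45%), near the share of all genes. With 3.77% of all genes above and 3.07% below, a short list can hold 0 members at these shares. Overlap does not show that DMBA left these genes at the same level, since the rule requires every array. *Il1b*, which encodes the inflammatory cytokine IL-1 beta, was 3.28 and 2.84 in DMBA-treated *CD109+/+* skin, -1.17 and -1.76 in DMBA-treated *CD109-/-* skin, against -0.67 to 0.14 in untreated skin, so the DMBA arrays lay on both sides of untreated skin.

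The rule asks for the same side, not for the same size, and the members differed in how alike the DMBA-treated genotypes were. Of the 632 genes above, 251 (39.7%) had both DMBA-treated *CD109+/+* arrays higher than both DMBA-treated *CD109-/-* arrays and 111 (17.6%) the reverse, against 36.5% and 35.7% of all genes. Of the 515 genes below, the shares were 19.6% and 29.7%. *Saa3*, *Stfa2*, *Krt6b* and *Timp1* were of the first kind, while *Ces2e*, *Robo3*, *Gpr179*, *Fetub*, *Gsdmcl2*, *Pmaip1* and *Tnfrsf10b* had overlapping DMBA arrays. The interaction of DMBA and labelled genotype, which the rule did not use, was tested with limma over all 36917 probes. At a Benjamini-Hochberg adjusted p under 0.05, 0 probes passed, 5853 had an unadjusted p under 0.05, and the smallest adjusted p was 0.0534. The smallest adjusted p of a gene above was 0.185, for *Hgf*, a growth factor of epithelia, whose DMBA difference in the *CD109-/-* minus that in the *CD109+/+* groups was -2.48 ± 0.29 (SE). The smallest of a gene below was 0.218, for *Inmt*, at -4.67 ± 0.65 (SE). *Ces2e* gave 0.67 ± 0.40 (SE) with an adjusted p of 0.429. These values rest on the genotype labels of untreated skin, and without the array labelled untreated *CD109+/+* replicate 1 or replicate 2, or without that labelled DMBA-treated *CD109-/-* replicate 2, 98, 115 and 25 probes passed. With the *Cd109* signal in place of the labelled genotype, 0 probes passed, 7709 had an unadjusted p under 0.05, and the smallest limma adjusted p was 0.0626.

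Motif letters in the 250 bases before the gene start were compared for the 10755 tested genes with a single RefSeq promoter, of which 731 were members. Among 104 genes above by more than 1 on the log2 scale, 13.5% carried the C/EBP motif TTGCNNAA on either strand, against 8.29% of all 10755 promoters, 7.28% of all 412 genes above and 6.58% of 319 genes below. The AP-1 motif TGANTCA was found in 7.69% of the same 104 genes against 5.20% of all. It was found in 6.07% of all 412 genes above and 4.39% of the 319 genes below. The xenobiotic response element TNGCGTG, which the Ah receptor binds, was found in 1 of the 104 genes (0.962%), against 5.86% of all. Its share was 4.61% in all 412 genes above and 5.02% in the 319 genes below. The shares of the CHR motif TTTGAA (13.5% against 11.96%) and of the CCAAT box (37.5% against 36.1%) lay near those of all promoters. Genes of one family can have nearly the same promoter, as *Saa1* and *Saa2* and, less so, *Stfa1* and *Cstdc5* do above, so the promoters are not independent. A promoter with several or overlapping matches was counted once for each motif. Base composition also differed between these classes. The median GC content was 51.6% in the 104 genes, 56.8% in all 412 genes above, 62.8% in genes below and 58.4% in all. Its part in the motif shares was not tested.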

How the data were processed

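Total RNA of 8 mouse skin samples was labelled with Cy3 and hybridized to 1-colour Agilent mouse arrays. The authors read the scans with Agilent Feature Extraction 11.5.1.1, and the deposited intensities are linear, background-subtracted and not normalized between arrays. In the value table the same numbers appear, multiplied by 1 constant for each array. Control spots and spots marked as outlier were left out, and the remaining spots of a probe were averaged. Of 55681 probes, 223 had no remaining spot on some array and were dropped. Log2 intensities were set relative to the 75th percentile of the array. A probe was tested (36917 in all) if some labelled group had it well above background on both arrays, and probes were named through RefSeq accessions (27922 of 29684 matched). A gene was represented by its brightest tested probe.

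The split by treatment used no test. Limma 3.58.1 in R 4.3.3 was fitted to all 8 arrays, with the *Cd109* signal (above 0 or below -5) as a covariate, or with labelled groups for the interaction, and was tested on simulated data. Genes were named by size of difference, gap, lower bound and place in 39 gene lists. Some genes that these rules name are not reported here. The members and the lists were chosen with earlier results of these data known. Alternatives were other scalings, filters, covariates, a replicate block, the methods' 2-sided test and leaving out arrays. Precision is limited by the number of arrays. An age is given for the mice of the tumour experiments and not separately for those of the arrays.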

Additional observations from a re-analysis of the deposited data

Results flagged for a closer look

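The highest or lowest of 4 arrays stood far from the other arrays of its treatment in 6 of 186 groups checked, and chance alone gives about 1 in 20. The gap divided by the range was 0.905 for *Ccl27a* after DMBA, where DMBA-treated *CD109+/+* replicate 1 was lowest at 2.20. In untreated skin it was 0.851 for *Cfc1* (-6.85 on the array labelled *CD109-/-* replicate 2) and 0.865 for *Krt6b* (0.41 on the array labelled *CD109-/-* replicate 1). On the untreated array labelled *CD109+/+* replicate 1 it was 0.857 for *Cyp1b1* (1.34), 0.887 for *Nr1h4* (-3.28) and 0.929 for *Rpl34* (7.96).

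The DMBA arrays moved in opposite directions in the labelled genotypes for *Il1b* and *Nfe2l2*, each higher than both untreated arrays of its label in *CD109+/+* skin and lower in *CD109-/-* skin. For *Nfe2l2* the closest *CD109-/-* arrays were nearly tied, at 2.748 on DMBA-treated replicate 1 and 2.750 on the array labelled untreated replicate 2. The DMBA difference in *CD109-/-* minus that in *CD109+/+* skin was -4.70 ± 0.50 (SE) for *Il1b*, with a limma adjusted p of 0.169, and -0.83 ± 0.29 (SE) for *Nfe2l2*, with a limma adjusted p of 0.290. Neither difference passed the threshold, and both rest on untreated groups that each hold an array whose *Cd109* signal goes against its label.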

How the results depend on the processing

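The counts of probes above and below stayed within 1.5 times of 1396 and 879 under all scalings and filters run. They were 1761 to 2585 and 1091 to 1722 when each array was left out, which relaxes the rule, and 2841 and 1848 without both untreated arrays whose *Cd109* signal went against their label. Leaving out DMBA-treated *CD109+/+* replicate 2 gave the 2585 above and DMBA-treated *CD109-/-* replicate 2 the 1722 below. With the mean of a gene's probes, 617 genes lay above and 482 below. Of 83 named members, *Olfm2* alone changed direction in a setting run, to 0.045 under normexp. By more than 1 SD, 22 others moved under normexp, among them *Nr1h4* (-0.12), *Ces1f* (-0.82), *Gapdhs* (1.80) and *Ces2e* (2.32). By the same measure, 7 moved under quantile normalization and 1 under median centring. Leaving out 1 array moved the fold difference of 13 named genes by over 1.5 times, 9 of them without the untreated array labelled *CD109-/-* replicate 1, such as *Stfa2* (2.81) and *Csta3* (2.26), 7 without DMBA-treated *CD109+/+* replicate 1, and 4 without replicate 1 and 4 without replicate 2 of DMBA-treated *CD109-/-* skin.

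The limma counts of 22 higher and 7 lower probes changed with most choices. With the mean hair shaft keratin signal as covariate in place of the *Cd109* signal, they were 24 and 10. They were 5 and 0 with no filter, 7 and 0 without a covariate, 6 and 0 with the labelled genotype, 0 and 0 without these 2 untreated arrays, and 0 to 22 and 0 to 2 when each array was left out. The methods' test gave 2024 and 1259 unadjusted and 1 and 1 after Benjamini-Hochberg adjustment. Lower probes numbered 4 with median centring, 15 where all 8 arrays had to be above background and 13 with a trend and robust variance. The interaction passed for 8 probes with quantile normalization, 2 with median centring, 4 with normexp and 0 to 115 when each array was left out, against 0 as reported. The causes were not tested.

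With the replicate number as a block, 1 probe passed as higher and 0 as lower in the replicate block fit. The numbers pair no animals in the labels. For the replicate 1 arrays, the deviations from the mean of their group correlated between groups at -0.08 to 0.73. The 0.73 belonged to the untreated arrays, which both had *Cd109* signal and a low hair shaft keratin signal (-4.24 and -4.33). Signal over background limits the dim genes, whose differences are bounds.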
